A study of Homo sapiens with 36 samples.

Results

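Replication-dependent histone genes encode the bulk of the histone protein that packages newly copied DNA. They were taken here as every human gene whose current NCBI symbol is H1-1 to H1-6 or begins with H2AC, H2BC, H3C or H4C followed by a number, after the gene identifiers in the deposited tables had been matched to RefSeq. The rule gave 69 genes (6 H1, 17 H2A, 18 H2B, 13 H3 and 15 H4 genes), of which 55 lie on chromosome 6, 13 on chromosome 1 and 1 on chromosome 12. Of these, 16 had a value in the NT2/D1-A4 GSK-J4 experiment, 30 in the 2102EP-C1 GSK-J4 experiment and 32 in the 2102EP-C1 knockdown experiment, out of 16431, 17035 and 16459 genes in the respective tables. In all, 35 members had a value somewhere, 15 had one in every experiment, and 34 had none in any of them. The study kept genes above 0.5 CPM in at least 2 libraries, so a missing value stands for a low read count and not for absence, although the deposited GSK-J4 tables also held 1 and 4 members below that limit.

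RNA-seq was carried out on 36 libraries from 2 cisplatin-resistant clones of testicular cancer cell lines, NT2/D1-A4 and 2102EP-C1, with 3 libraries in each of 4 arms per experiment. In both GSK-J4 experiments the arms were control, cisplatin (0.5 µM for 6 h), GSK-J4 (1 µM for 3 days) and GSK-J4 followed by cisplatin. GSK-J4 inhibits KDM6A and KDM6B, enzymes that take methyl groups off lysine 27 of histone H3. In the knockdown experiment 2102EP-C1 cells carried either the empty vector pLKO.1 or shRNAs to both KDM6A and KDM6B (sh6A+6B), each without or with the same dose of cisplatin, so that these controls carried an integrated vector that the GSK-J4 controls did not. RNA was collected the day after cisplatin, each cell line was represented by 1 resistant clone, and no non-resistant parental cells were included.

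Histone proteins of the H2A, H2B, H3 and H4 classes form the nucleosome core, around which DNA is wrapped, and H1 proteins bind the DNA that links one nucleosome to the next. The replication-dependent genes are mostly intronless, lie in clusters and are transcribed in S phase, and their mRNAs normally end in a conserved stem-loop, bound by the protein SLBP, instead of a poly(A) tail. Poly(A)-selected libraries, such as the stranded mRNA libraries used here, therefore capture these mRNAs incompletely and favour whatever polyadenylated forms a gene makes. A level below is the level in such a library and not the total histone mRNA of the cell.

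The stem-loops of the members named most often below are shown because they mark the rule's genes as a class at the mRNA level, a property the rule did not use. Each line gives 26 bases in mRNA sense, 5′ to 3′, read from the GRCh38.p14 (hg38) genome, with the 16-base motif in capitals.
H1-2, chr6:26055739-26055764, minus strand: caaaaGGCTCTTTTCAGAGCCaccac
H2AC6, chr6:26124664-26124689, plus strand: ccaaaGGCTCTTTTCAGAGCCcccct
H2BC12, chr6:27146361-27146386, minus strand: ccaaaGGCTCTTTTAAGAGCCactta
H2BC21, chr1:149886183-149886208, minus strand: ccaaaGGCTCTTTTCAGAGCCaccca
H2BC4, chr6:26123467-26123492, minus strand: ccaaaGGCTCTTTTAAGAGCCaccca
H3C12, chr6:27890315-27890340, minus strand: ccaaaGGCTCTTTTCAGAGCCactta
H3C6, chr6:26225591-26225616, plus strand: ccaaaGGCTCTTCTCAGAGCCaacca
H4C3, chr6:26104312-26104337, plus strand: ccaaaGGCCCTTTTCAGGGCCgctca
H4C15, chr1:149860764-149860789, minus strand: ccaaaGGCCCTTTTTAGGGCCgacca

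The motif GGNNCTTNTNAGNNCC, searched on the gene's own strand within 120 bases after the stop codon, was found in 69 of 69 members and in 2 of 4081 other protein-coding genes of chromosomes 1, 6 and 12, both of them further H3 genes (H3-4 and H3-7). It began between 23 and 68 bases after the stop codon (median 36). Among the members 10 different letter versions occurred, the commonest being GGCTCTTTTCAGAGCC in 40 genes, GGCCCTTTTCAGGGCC in 10 and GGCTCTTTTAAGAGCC in 9. Measured and unmeasured members thus did not differ in having the motif, but they differed in the gene model beyond it. The RefSeq gene ended more than 100 bases past the stem-loop in 7 of the 35 members measured in any experiment (H2BC4, H2BC5, H2BC12, H2BC18, H2BC21, H3C6 and H4C15) and in 0 of the 34 measured in none. With GENCODE transcripts the corresponding counts were 14 of 35 and 3 of 34. These longer gene models also offer more sequence to which reads can be assigned.

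Promoter sequences from RefSeq (GRCh38.p14, 250 bases before to 50 after the start of the gene) were matched for 64 of the 69 members and compared with all 27305 promoters in the same set, searching both strands. TATAAA was present in 65.6% of member promoters and in 12% of all promoters, and CCAAT in 84.4% and 35.7%. ATTTGCAT, the octamer that POU2F1 recognises, was present in 40.6% of member promoters against 1.80% of all, and was found in 11 of 16 H2A and 14 of 18 H2B promoters. GGTCCG, a sequence within the H4 promoter element bound by HINFP, was present in 12 of 13 H4 promoters and in 11.2% of all promoters. The 250 bases before the start of the leading H1, H2A and H2B genes are given below with matches on either strand to the first 3 of these motifs in capitals, because these genes carried the largest shares of reads in their classes. Some matches overlap each other in H2BC12. The H2AC6 stretch is also the interval that separates H2AC6 from H2BC4, which is transcribed away from it on the other strand.
H1-2, chr6:26056471-26056720, minus strand: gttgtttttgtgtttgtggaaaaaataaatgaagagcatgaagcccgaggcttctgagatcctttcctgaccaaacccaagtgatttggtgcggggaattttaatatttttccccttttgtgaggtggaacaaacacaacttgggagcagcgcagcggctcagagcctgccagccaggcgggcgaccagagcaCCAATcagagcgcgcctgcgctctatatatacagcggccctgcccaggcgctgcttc
H2AC6, chr6:26123922-26124171, plus strand: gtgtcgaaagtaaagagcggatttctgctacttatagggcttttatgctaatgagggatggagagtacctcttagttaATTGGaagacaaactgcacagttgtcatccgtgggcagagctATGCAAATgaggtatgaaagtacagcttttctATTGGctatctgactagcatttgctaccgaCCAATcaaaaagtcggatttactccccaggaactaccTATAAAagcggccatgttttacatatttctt
H2BC12, chr6:27146859-27147108, minus strand: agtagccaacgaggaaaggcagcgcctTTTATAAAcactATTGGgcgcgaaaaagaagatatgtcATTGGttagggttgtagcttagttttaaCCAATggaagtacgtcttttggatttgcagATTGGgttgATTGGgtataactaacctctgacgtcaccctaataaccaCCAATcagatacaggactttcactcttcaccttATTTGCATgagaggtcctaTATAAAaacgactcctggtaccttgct

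All 12 embryonal carcinoma markers examined reached at least 1 CPM (reads scaled to the depth of the library) in every library. So did 3 of 4 mesenchyme and 1 of 4 neural markers in each experiment, and 1 of 6 yolk sac or endoderm markers in NT2/D1-A4 only. At most 1 of 3 blood, 2 of 6 yolk sac or endoderm, 2 of 4 neural and 3 of 4 mesenchyme markers had a value in any experiment. The 12 markers summed to 10350 to 10577 CPM in NT2/D1-A4 control and 8902 to 9150 CPM with GSK-J4, and to 12193 to 12605 and 10832 to 11111 CPM in 2102EP-C1. The measured yolk sac markers (AFP and GATA4) summed to 2.22 to 2.85 CPM in control and 4.08 to 4.74 CPM with GSK-J4 in NT2/D1-A4, and to 0.807 to 1.26 and 1.82 to 2.13 CPM in 2102EP-C1, while SOX17, GATA6, FOXA2 and APOA1 had no value. In NT2/D1-A4 2 neural markers went from 2.68 to 3.00 CPM in control to 3.47 to 4.14 CPM with GSK-J4, and 3 mesenchyme markers from 107 to 112 to 82.4 to 91.9 CPM. In 2102EP-C1 the mesenchyme sum went from 124 to 126 to 105 to 116 CPM with GSK-J4. Only 1 of these 3 markers was lower there and 2 were higher (median log2 change 0.07), so the fall of the sum came from 1 marker. In NT2/D1-A4 2 of the 3 were lower and 1 higher. In sh6A+6B against pLKO.1 cells the embryonal carcinoma sum was 10921 to 11074 against 11569 to 11623 CPM, the mesenchyme sum 155 to 164 against 121 to 127 CPM and the single neural marker 8.36 to 9.29 against 10.2 to 11 CPM. Gene by gene, however, 6 of the 12 embryonal carcinoma markers were higher and 6 lower in sh6A+6B cells (median log2 change -0.01). Of the 3 mesenchyme markers 2 were higher and 1 lower. The part of these marker shifts in the histone changes was not tested. Library depth was 26.8 to 49.5 M reads (megareads) in the NT2/D1-A4 GSK-J4 experiment, 30.3 to 53.6 M in the 2102EP-C1 GSK-J4 experiment and 79.4 to 100.9 M in the knockdown experiment. In sh6A+6B cells KDM6A was lower by 1.01 and KDM6B by 1.01 on the log2 scale than in pLKO.1 cells, with log2 CPM of 6.09 to 6.20 against 7.15 to 7.17 for KDM6A and of 3.51 to 3.75 against 4.61 to 4.66 for KDM6B. KDM6B mRNA rose with GSK-J4, by 0.88 ± 0.06 (SE) in NT2/D1-A4 and 0.81 ± 0.07 in 2102EP-C1. Replicate libraries were described as biological replicates, but whether they came from separate cultures was not stated, and the p-values below therefore measure only the spread between these libraries, which may be technical. In bulk RNA fewer cells in S phase and less histone mRNA per cell cannot be told apart.

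Most members were weakly represented. Members above 0.5 CPM in at least 2 libraries numbered 15, 26 and 32 in the NT2/D1-A4 GSK-J4, 2102EP-C1 GSK-J4 and knockdown experiments, but only 9, 11 and 21 met this in every arm, and 9, 10 and 17 had a mean of at least 1 CPM. Coverage differed by class, since no H3 gene had a value in NT2/D1-A4 and only 4 and 3 of the 13 H3 genes had one in the 2102EP-C1 experiments. H2B was the class with the most measured genes, at 6, 11 and 11 of 18. H1-2, a linker histone, and H2BC12, a core H2B histone whose gene continues past the stem-loop, together held 51.1%, 54.7% and 60.6% of the summed CPM of all measured members in the 3 experiments. In RPKM, the reads corrected for both library depth and gene length, H1-2 stood at 29.4 ± 1.24 (SD, n = 3) in NT2/D1-A4 controls, 49.5 ± 0.712 in 2102EP-C1 controls and 89.8 ± 1.3 in pLKO.1 cells. H2AC6, the leading H2A gene, stood at 5.78 ± 0.536, 6.79 ± 0.498 and 9.21 ± 0.596 RPKM on the same scale. The tables were normalized separately, and differences in level between experiments were not tested.

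Summed over the measured genes, the H1 and H2A classes were lower with GSK-J4 in NT2/D1-A4 and the H4 class was not. In NT2/D1-A4 the H1 sum was 21.7 ± 0.969 CPM (SD, n = 3) in control cells, 13.4 ± 1.44 with cisplatin, 10.2 ± 0.201 with GSK-J4 and 6.62 ± 0.505 with both. The H2A sum was 5.63 ± 0.824, 5.56 ± 0.746, 3.37 ± 0.525 and 2.44 ± 0.0885 CPM in the same order. The H4 sum was 7.29 ± 0.113, 7.89 ± 0.641, 7.57 ± 0.0854 and 6.30 ± 1.11 CPM. Thus each GSK-J4 library lay below each control library for H1 and H2A, whereas for H4 each GSK-J4 library lay above each control library. In 2102EP-C1 the sum over all members was 123.5 ± 2.98 CPM in control cells, 110.2 ± 1.29 with cisplatin, 94.3 ± 3.60 with GSK-J4 and 78.1 ± 7.81 with both, with no overlap between successive arms. In the knockdown experiment it was 192.3 ± 1.42 in pLKO.1, 150.3 ± 3.84 in pLKO.1 with cisplatin, 193.9 ± 1.24 in sh6A+6B and 177.2 ± 3.07 in sh6A+6B with cisplatin, so that the pLKO.1 and sh6A+6B libraries overlapped and the cisplatin-treated libraries lay apart. The sums were not tested, since a few genes carry each of them.

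**Figure D1:**
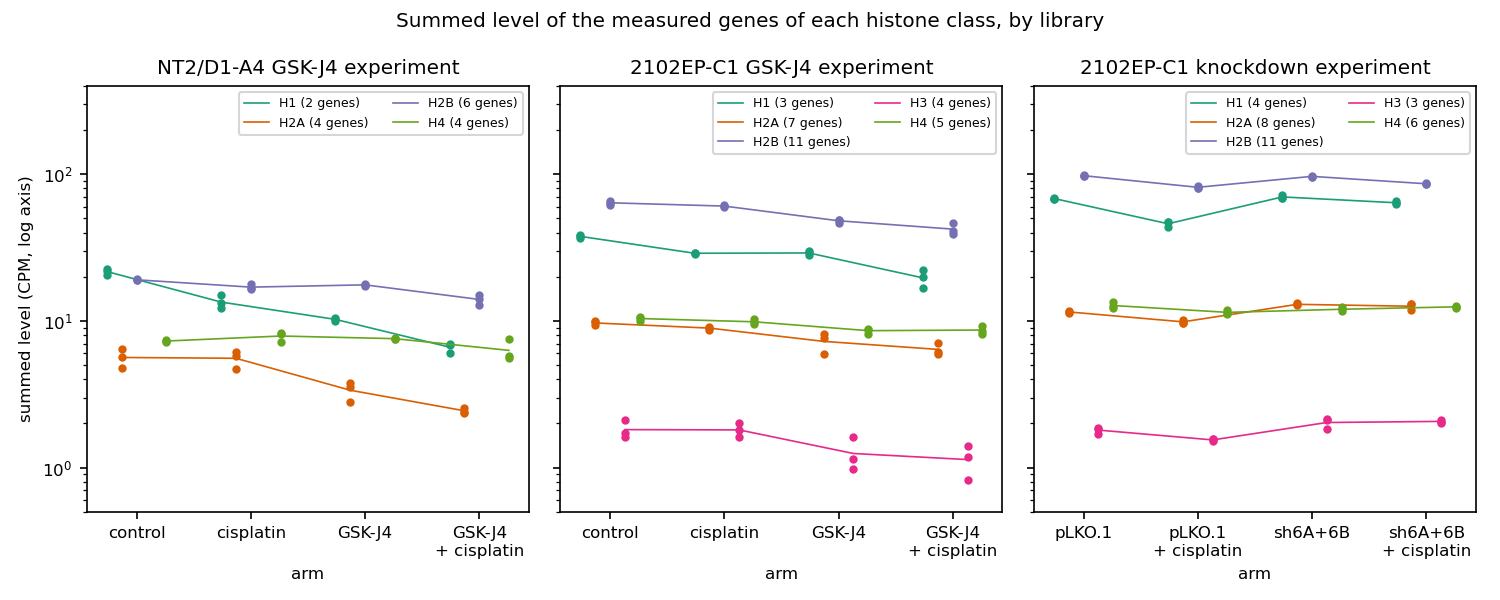
Summed level of the measured genes of each histone class in CPM on a log axis (y) by arm (x), 1 panel per experiment; points are libraries and lines join the means of 3 libraries. In the GSK-J4 experiments the H1 line falls from control to GSK-J4 with cisplatin, from 21.7 to 6.62 CPM in NT2/D1-A4 and from 37.7 to 19.7 CPM in 2102EP-C1, and in the knockdown experiment the H1 low point is pLKO.1 with cisplatin at 46.0 CPM.

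To determine how inhibition of the polycomb demethylases affected these genes before any cisplatin, GSK-J4 was compared with control. A gene was called when it changed by more than 1.3-fold at a Benjamini-Hochberg adjusted p below 0.05 in limma-trend across all genes of the table. In NT2/D1-A4, 4 of 16 measured members fell and 0 rose, where 6.48% of all genes tested were called lower and 13.8% higher. In 2102EP-C1, 14 of 30 fell and 0 rose, against 3.12% of all genes lower and 7.79% higher. The median log2 change over the measured members was -0.39 in NT2/D1-A4 and -0.50 in 2102EP-C1, with the median of all genes within 0.01 of 0, and 29 of the 30 members in 2102EP-C1 had a value below 0. The 2102EP-C1 count depended on single libraries, being 5 without control replicate 1 (H2AC20, H2BC4, H2BC9, H2BC15 and H3C8) and 9 without GSK-J4 replicate 3. Of the 14, 3 (H2BC4, H2BC11 and H2BC21) were above 0.5 CPM in at least 2 libraries of both arms, 9 were so in control only and 2 in neither. A member that passed the study's filter only through the arms where it was high had to be lower elsewhere, so the count of 14 and the median are descriptions and not independent of that filter. Among the members averaging 1 CPM or more, 3 of 10 were called in 2102EP-C1 (median -0.36) and 4 of 9 in NT2/D1-A4 (median -0.44). The 2102EP-C1 count was 7 among members sharing no 75-base coding stretch with another gene.

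H1-2 was the member that fell most in NT2/D1-A4. Its log2 CPM was 4.36, 4.48 and 4.45 in the control libraries and 3.37, 3.33 and 3.32 with GSK-J4. The GSK-J4 libraries lay about 1 log2 unit below the control libraries and close to each other. The change was -1.09 ± 0.07 (log2, SE; adjusted p = 9.59e-10, limma-trend), that is, 0.471 of the control level. In 2102EP-C1 the values were 5.18, 5.16 and 5.20 in control and 4.85, 4.87 and 4.78 with GSK-J4, again without overlap, but the difference of -0.35 ± 0.06 (adjusted p = 0.000106, limma-trend) did not exceed the 1.3-fold limit. Other H1 genes were at low counts. In 2102EP-C1, H1-4 had log2 CPM of -0.08, -0.65 and -1.26 in control (18 to 30 reads) and -1.19, -2.31 and -2.37 with GSK-J4 (4 to 11 reads), the highest GSK-J4 value lying just above the lowest control value, and fell by 1.29 on the log2 scale (adjusted p = 0.00810, limma-trend), a call lost without control replicate 1. H1-5 fell as well (-0.84 ± 0.29, adjusted p = 0.0265, limma-trend), so that 2 of 3 measured H1 genes were called in 2102EP-C1 and 1 of 2 in NT2/D1-A4. In 2102EP-C1 H1-4 and H1-5 were above 0.5 CPM in at least 2 libraries only in arms without GSK-J4. Their calls were therefore not independent of the filter.

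Of the H2A genes, which encode the core histone that pairs with H2B, 1 of 4 was called in NT2/D1-A4 and 3 of 7 in 2102EP-C1. H2AC6 had log2 CPM of 1.48, 1.74 and 1.65 in NT2/D1-A4 control cells and 0.50, 0.75 and 0.86 with GSK-J4. These libraries did not overlap, and the gene fell by 0.92 ± 0.14 on the log2 scale (adjusted p = 1.94e-05, limma-trend). In 2102EP-C1 the H2AC6 libraries overlapped, at 1.88, 1.73 and 1.93 in control and 1.75, 1.84 and 1.54 with GSK-J4 (-0.14 ± 0.12, adjusted p = 0.402, limma-trend). H2AC20 went from -0.49, 0.06 and -0.17 to -0.89, -1.17 and -1.57 in 2102EP-C1, with every GSK-J4 library below every control library, and fell by 1.01 ± 0.27 (adjusted p = 0.00504, limma-trend). H2AC11 (-0.67) and H2AC17 (-0.73) were the other H2A genes called in 2102EP-C1. All 3 were above 0.5 CPM in at least 2 libraries of control but not of GSK-J4. H2AC20 and H2AC17 reached this in no arm with GSK-J4, so their calls were not independent of the filter.

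H2B genes gave the only members called with GSK-J4 in both cell lines, H2BC21 and H2BC4. For H2BC21 the NT2/D1-A4 log2 CPM was 1.07, 1.44 and 1.18 in control and 0.76, 0.74 and 0.69 with GSK-J4, a change of -0.50 ± 0.15 (adjusted p = 0.00902, limma-trend). In 2102EP-C1 the H2BC21 values were 2.99, 2.86 and 2.80 in control and 2.51, 2.51 and 2.34 with GSK-J4, a change of -0.43 ± 0.11 (adjusted p = 0.00399, limma-trend). The groups lay apart in both lines, but both calls depended on single libraries and were lost without NT2/D1-A4 control replicate 2, without 2102EP-C1 control replicate 1 or without 2102EP-C1 GSK-J4 replicate 3. H2BC4 went from 1.80, 1.94 and 1.85 to 1.49, 1.12 and 1.34 in NT2/D1-A4 (-0.55 ± 0.13, adjusted p = 0.00165, limma-trend) and from 2.61, 2.35 and 2.47 to 1.93, 2.09 and 1.97 in 2102EP-C1 (-0.48 ± 0.12, adjusted p = 0.00272, limma-trend). Each H2BC4 library with GSK-J4 was below each control library in both lines. H2BC21 shares 34.5% of its 75-base coding windows with other genes, H2BC18 being the closest, so that reads could be divided between them, whereas H2BC4 shares 4.93%.

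H2BC12, the leading H2B gene, lay on opposite sides of its controls in the cell lines. The gene overlaps H4C9 on the other strand, and since the strand setting of the count is not given in the sources used here, its value may include H4C9 reads. Its log2 CPM in NT2/D1-A4 was 3.18, 3.17 and 3.17 in control and 3.38, 3.27 and 3.30 with GSK-J4, every GSK-J4 library being the higher (0.14 ± 0.08, adjusted p = 0.152, limma-trend). In 2102EP-C1 it was 5.05, 5.07 and 4.98 in control and 4.68, 4.69 and 4.64 with GSK-J4, every GSK-J4 library being the lower (-0.36 ± 0.05, adjusted p = 8.12e-06, limma-trend, under the 1.3-fold limit). The difference between the lines was not tested. H2BC15 and H2BC9, which had no value in NT2/D1-A4, fell in 2102EP-C1 from low levels. H2BC15 went from -0.43, -1.05 and -0.77 (16 to 27 reads) to -1.70, -2.83 and -1.84 (2 to 7 reads), a change of -1.37 ± 0.32 (adjusted p = 0.00150, limma-trend). H2BC9 went from -0.27, -0.35 and 0.08 to -1.08, -0.90 and -0.98, a change of -0.81 ± 0.25 (adjusted p = 0.0142, limma-trend), called except without control replicate 3. With H2BC11 and H2BC18, 6 of 11 H2B genes were called in 2102EP-C1 and 2 of 6 in NT2/D1-A4, where 3.12% and 6.48% of all genes were called lower. H2BC9, H2BC15 and H2BC18 were above 0.5 CPM in at least 2 libraries of control but not of GSK-J4. H2BC15 and H2BC18 reached this in no other arm than control, so their calls were not independent of the filter.

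H3 and H4 are the core histones at the centre of the nucleosome, and H3 carries the methyl mark that KDM6A and KDM6B remove. Of the H3 genes, H3C8 (-1.38 ± 0.45, adjusted p = 0.0177, limma-trend) and H3C10 (-0.93) fell in 2102EP-C1, H3C8 from 10 to 21 reads a library to 1 to 4, and the H3C8 call was lost without control replicate 2 or without GSK-J4 replicate 3. Both genes were above 0.5 CPM in at least 2 libraries of neither arm, so these calls rest on values near the limit of the filter. H3C12, the H3 gene with the highest level in that experiment, had overlapping libraries at -0.81, -0.44 and -0.52 in control and -0.73, -0.25 and -0.44 with GSK-J4. Of the H4 genes 0 of 4 were called in NT2/D1-A4 and 1 of 5 in 2102EP-C1 (H4C16, -0.85), and the class medians were 0.02 and -0.28, compared with -0.74 and -0.84 for H1. The H1 medians cover 2 and 3 genes, with H1-2 at -1.09 and -0.35. In NT2/D1-A4 the other gene, H1-1, had 4 to 16 reads with GSK-J4. In 2102EP-C1 H1-4, H1-5 and H4C16 were above 0.5 CPM in at least 2 libraries only in arms without GSK-J4. Neither 2102EP-C1 median was therefore independent of the filter. H4C15, the leading H4 gene, had log2 CPM of 2.02, 2.05 and 2.12 in NT2/D1-A4 control and 1.86, 1.76 and 1.84 with GSK-J4 (-0.24 ± 0.09, adjusted p = 0.0401, limma-trend, under the fold limit). In 2102EP-C1 the H4C15 values reached from 2.87 to 3.00 in control and from 2.49 to 2.87 with GSK-J4. The H4C15 coding sequence is identical to that of H4C14 and the gene overlaps H2AC19 and H3C15 on the opposite strand, so its value may include reads of those genes. H4C3 was higher with GSK-J4 in all NT2/D1-A4 libraries, at 1.67, 1.86 and 1.79 against 1.52, 1.21 and 1.26, without passing the test (0.44 ± 0.18, adjusted p = 0.0535, limma-trend).

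Genes with extended RefSeq ends did not separate cleanly from the others. With GSK-J4 the median change of the 5 extended members in NT2/D1-A4 was -0.24 (2 called) and that of the other 11 was -0.40 (2 called). In 2102EP-C1 the medians were -0.42 for 7 extended members (3 called) and -0.65 for 23 others (11 called). Of those 11, only H2BC11 was above 0.5 CPM in at least 2 libraries of both arms. The median and count of the others were therefore not independent of the filter. Both kinds of gene model thus contained called members, and the difference between them was not tested.

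**Figure D2:**
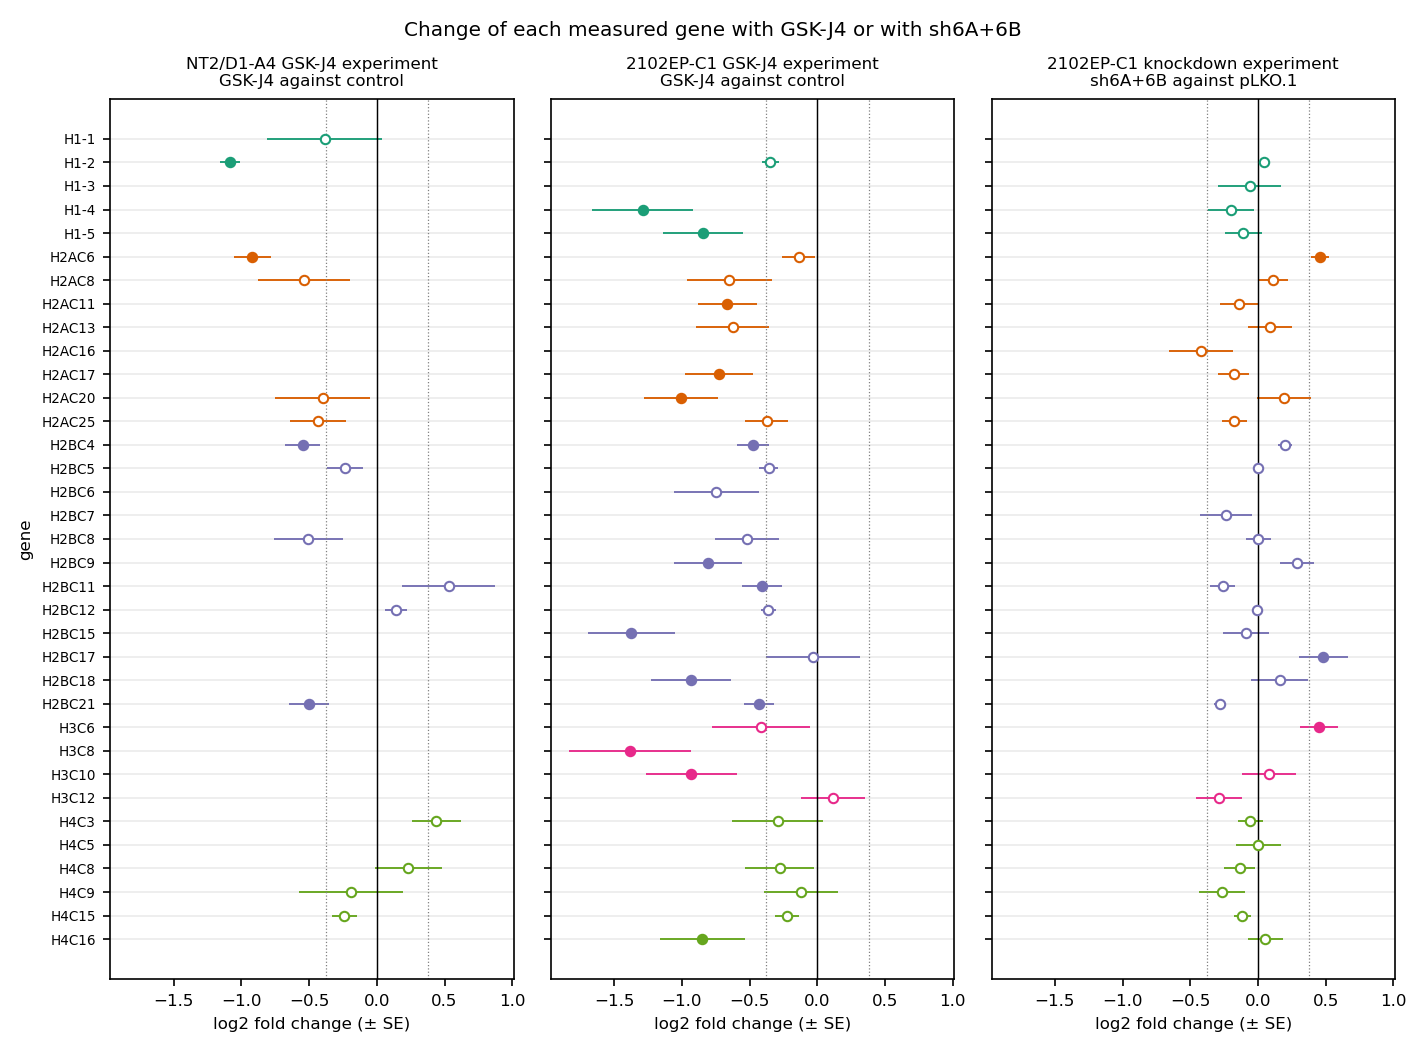
Log2 fold change ± SE (x) of each measured member (y, by class colour) with GSK-J4 against control or sh6A+6B against pLKO.1, 1 panel per experiment; filled points were called and dotted lines mark a 1.3-fold change. Filled points lie left of 0 for 4 of 16 and 14 of 30 members in the GSK-J4 panels and right of 0 for 3 of 32 in the knockdown panel.

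The shRNA knockdown of the same demethylases did not lower these genes as a group. In sh6A+6B cells against pLKO.1 cells 3 of 32 measured members rose and 0 fell, where 6.34% of all genes were called higher and 5.74% lower, and the median log2 change was -0.03. H2AC6 had log2 CPM of 2.16, 2.29 and 2.34 in pLKO.1 and 2.77, 2.65 and 2.74 in sh6A+6B. Every sh6A+6B library was the higher, and the gene rose by 0.46 ± 0.07 (adjusted p = 3.02e-06, limma-trend), whereas it had fallen with GSK-J4 in NT2/D1-A4. In 2102EP-C1, the line used for the knockdown, H2AC6 was not called with GSK-J4 (-0.14) and its libraries overlapped. H3C6, an H3 gene with an extended end, rose from -0.24, -0.25 and -0.43 to -0.03, 0.20 and 0.26 (0.45 ± 0.14, adjusted p = 0.00951, limma-trend). H2BC17 rose from -1.24, -1.29 and -0.93 to -0.73, -0.60 and -0.69 (0.48 ± 0.18, adjusted p = 0.0259, limma-trend), a call lost without pLKO.1 replicate 1 or 2 or without sh6A+6B replicate 2 or 3. Of the 3, only H2AC6 averaged 1 CPM or more. H2BC17 was above 0.5 CPM in at least 2 libraries only in sh6A+6B, so its call was not independent of the filter. Without the fold limit 6 members passed the adjusted p, where 52.8% of all genes did. H2BC21 and H2BC4, called lower with GSK-J4 in both lines, had values of -0.28 ± 0.05 (adjusted p = 2.23e-05, limma-trend) and 0.20 ± 0.05 (adjusted p = 0.00235, limma-trend) with the knockdown, neither past the fold limit. H1-2 was at 6.03, 6.02 and 6.06 in pLKO.1 and 6.05, 6.12 and 6.06 in sh6A+6B, the libraries overlapping in level (0.04 ± 0.03, adjusted p = 0.267, limma-trend). The sign of the effect on H1-2 and H2AC6 was not compared across experiments by a test, since the tables were normalized separately and the arms differ in agent and vector.

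Because H2A and H2B genes often lie head to head with a shared promoter interval, both genes of such pairs were examined. In every experiment both members had values for H2BC4 and H2AC6 (246 bases between their starts on chromosome 6), H2BC21 and H2AC20 (236 bases, chromosome 1) and H2BC8 and H2AC8 (233 bases, chromosome 6). With GSK-J4 in NT2/D1-A4 the first pair moved together, with H2BC4 at -0.55 and H2AC6 at -0.92, both called. In 2102EP-C1 H2BC4 fell by 0.48 while H2AC6 at -0.14 did not pass the test, and in sh6A+6B cells H2AC6 rose by 0.46 while H2BC4 at 0.20 stayed under the fold limit. H2BC21 and H2AC20 were both called in 2102EP-C1 with GSK-J4 (-0.43 and -1.01), but not both in NT2/D1-A4, where H2AC20 had 5 to 24 reads in the control and GSK-J4 libraries. For H2BC8 and H2AC8 the GSK-J4 values were -0.51 and -0.54 in NT2/D1-A4 and -0.52 and -0.65 in 2102EP-C1, with overlapping libraries and none called, and with sh6A+6B they were 0.00 and 0.11. A further 2 pairs had both values in the 2102EP-C1 experiments only, H2BC11 and H2AC11 (248 bases) and H2BC17 and H2AC17 (240 bases). With GSK-J4 H2BC11 (-0.41) and H2AC11 (-0.67) were both called, whereas H2AC17 was called at -0.73 and H2BC17 had a value of -0.03. In 2102EP-C1 H2AC20, H2AC11 and H2AC17 were above 0.5 CPM in at least 2 libraries of control but not of GSK-J4. H2AC20 and H2AC17 reached this in no arm with GSK-J4, so their calls were not independent of the filter. With sh6A+6B the values were -0.26 and -0.14 for H2BC11 and H2AC11, neither called, and 0.48 (called) and -0.18 for H2BC17 and H2AC17. That H2BC17 call was not independent of the filter either, since only sh6A+6B had at least 2 libraries above 0.5 CPM.

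Cisplatin alone was followed by few calls among the members, all of them lower. In NT2/D1-A4, 1 of 16 measured members fell and 0 rose (0.396% of all genes lower, 2.05% higher), and in 2102EP-C1, 0 of 30 were called (0.188% of all genes lower, 0.881% higher), with 3 members at an unadjusted p under 0.05 in limma-trend and 1 member called without control replicate 2 or without cisplatin replicate 1. In pLKO.1 cells 6 of 32 fell and 0 rose, where 0.462% of all genes were called lower and 2.53% higher. The median log2 change over the members was -0.01, -0.19 and -0.26 in the 3 experiments. Without the fold limit 2 of 16, 1 of 30 and 11 of 32 members passed the adjusted p in the respective experiments, all of them lower. Of all genes 9.43%, 4.08% and 36.1% passed in either direction. The pLKO.1 share of members was near that of all genes on this wider criterion, which takes no account of direction.

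H1-2 was the member common to these comparisons. In NT2/D1-A4 its log2 CPM was 4.36, 4.48 and 4.45 in control and 3.61, 3.70 and 3.86 with cisplatin, the libraries lying well apart (-0.71 ± 0.07, adjusted p = 8.45e-06, limma-trend). In pLKO.1 cells it was 6.03, 6.02 and 6.06 without and 5.37, 5.48 and 5.51 with cisplatin, again with no overlap (-0.58 ± 0.03, adjusted p = 1.16e-12, limma-trend). In the 2102EP-C1 GSK-J4 experiment it was 5.18, 5.16 and 5.20 in control and 4.82, 4.79 and 4.80 with cisplatin, and although these libraries were as cleanly separated, the ratio of 0.770 fell just short of the fold limit (-0.38 ± 0.06, adjusted p = 0.000492, limma-trend). No H1-2 call in any comparison was lost when a single library was left out.

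In pLKO.1 cells the members called beside H1-2 were 1 H2A, 2 H2B, 1 H3 and 1 H4 gene. H2BC12 went from 5.73, 5.77 and 5.76 to 5.37, 5.39 and 5.36 with cisplatin (-0.38 ± 0.02, adjusted p = 2.19e-11, limma-trend), close enough to the fold limit that the call was lost with unadjusted library sizes, without pLKO.1 replicate 2 or without pLKO.1 + cisplatin replicate 3. H2BC11 went from 1.71, 1.57 and 1.47 to 1.03, 1.25 and 1.05 (-0.48 ± 0.09, adjusted p = 0.000255, limma-trend). H4C3 went from 1.80, 2.00 and 1.89 to 1.47, 1.55 and 1.42 (-0.42 ± 0.09, adjusted p = 0.000750, limma-trend). In these genes every cisplatin library was below every pLKO.1 library. H3C12 went from -0.68, -0.91 and -0.91 to -1.45, -1.28 and -1.47 without overlap (-0.57 ± 0.17, adjusted p = 0.0121, limma-trend). H2AC20 fell by 0.60 (adjusted p = 0.0207, limma-trend) with overlapping libraries, its cisplatin values of -1.75, -0.74 and -1.05 straddling the lowest pLKO.1 value of -0.77, and lost the call without pLKO.1 replicate 1 or 2 or without pLKO.1 + cisplatin replicate 1. The H3C12 and H4C3 calls were lost without pLKO.1 replicate 1 and without pLKO.1 replicate 2, respectively. H2AC20 was above 0.5 CPM in at least 2 libraries in pLKO.1 but not with cisplatin, and H3C12 in neither arm. These calls therefore rest on values near the limit of the filter. The 7 members with extended RefSeq ends had a median of -0.08 with cisplatin in pLKO.1 cells (1 called) and the other 25 a median of -0.28 (5 called).

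**Figure D3:**
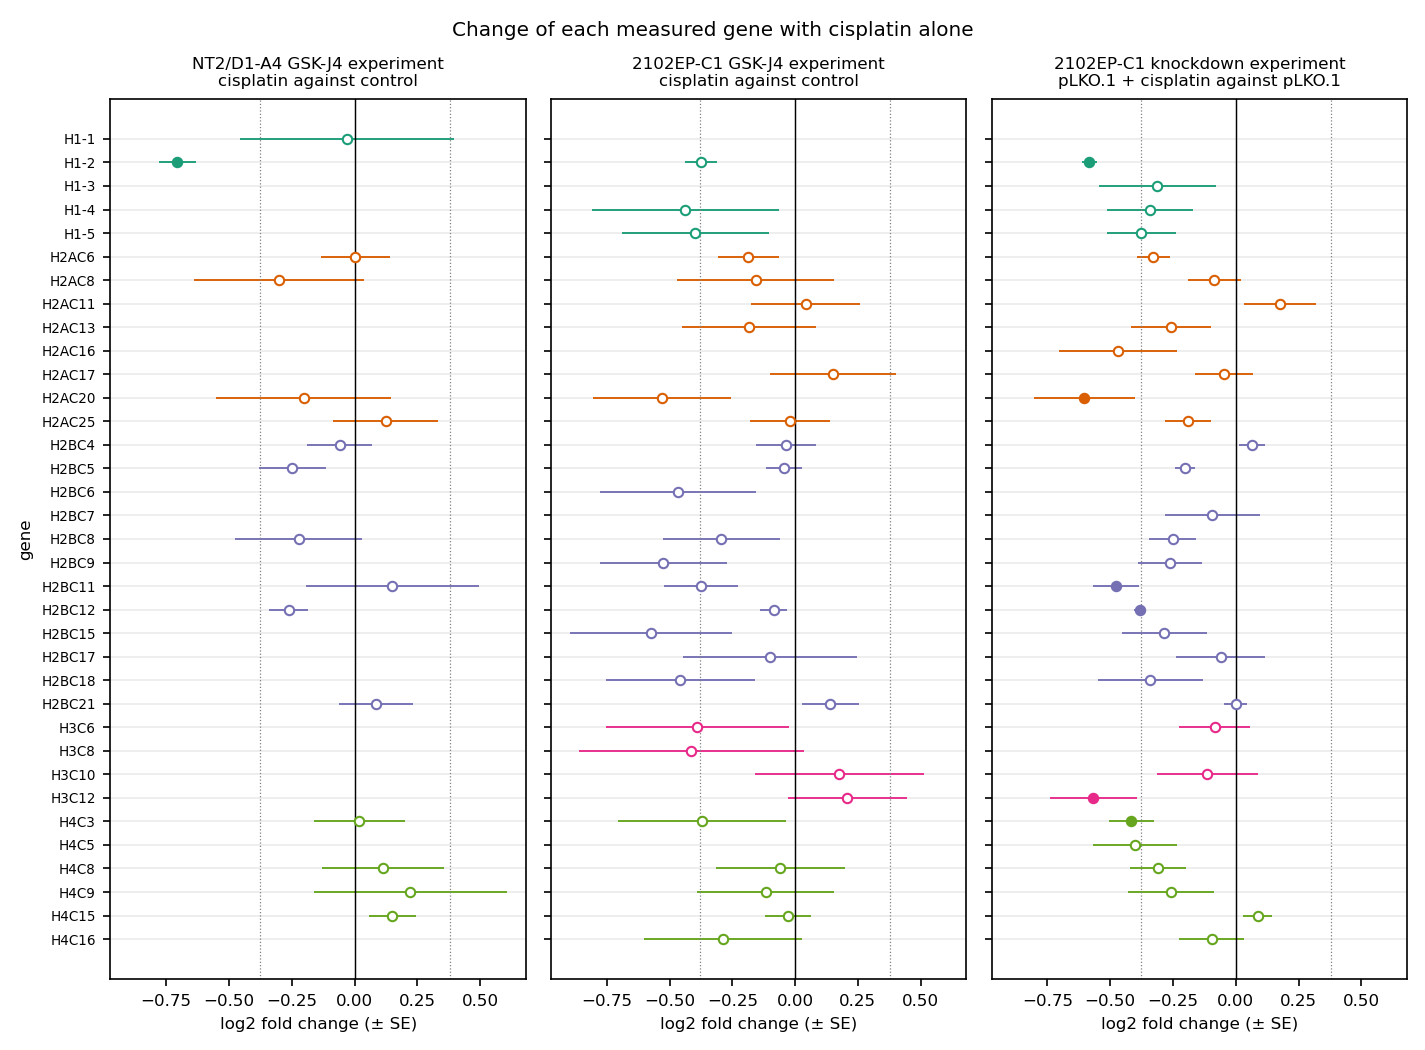
Log2 fold change ± SE (x) of each measured member (y, by class colour) with cisplatin alone, 1 panel per experiment; filled points were called and dotted lines mark a 1.3-fold change. H1-2 is filled at -0.71 in NT2/D1-A4 and at -0.58 in pLKO.1 cells and is open at -0.38 in the 2102EP-C1 GSK-J4 experiment.

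More members were called against control when cisplatin followed GSK-J4 than with either agent alone. Against control, 9 of 16 measured members fell in NT2/D1-A4 and 0 rose (9.56% of all genes lower, 15.9% higher), and 20 of 30 fell in 2102EP-C1 and 0 rose (9.77% lower, 12.8% higher), with 13 called without 2102EP-C1 control replicate 1. The members called in both cell lines were H1-2, H2AC8, H2AC25, H2BC4, H2BC5, H2BC8 and H2BC21, and all 30 values in 2102EP-C1 were below 0. Of these, H2AC8 and H2BC8 were above 0.5 CPM in at least 2 NT2/D1-A4 libraries in control and not with both agents, as was H2AC8 in 2102EP-C1, so these calls were not independent of the filter. In 2102EP-C1, 9 of the 20 called members were above that level in both arms, 8 in control only and 3 in neither, and among members averaging 1 CPM or more 6 of 10 were called there and 7 of 9 in NT2/D1-A4. By class, calls in 2102EP-C1 comprised 3 of 3 H1, 6 of 7 H2A, 9 of 11 H2B, 1 of 4 H3 and 1 of 5 H4 genes, and in NT2/D1-A4 1 of 2 H1, 3 of 4 H2A, 4 of 6 H2B and 1 of 4 H4 genes. H1-2 stood at 2.65, 2.50 and 2.71 in NT2/D1-A4 after both agents, below every other arm and at 0.285 of the control level (-1.81 ± 0.07, adjusted p = 4.56e-13, limma-trend). In 2102EP-C1 H1-2 stood at 4.06, 4.31 and 4.44 after both (-0.91 ± 0.06, adjusted p = 5.06e-12, limma-trend). H1-5 showed the largest difference there, at -1.94 ± 0.29 (adjusted p = 3.67e-06, limma-trend), from 0.46, -0.60 and -0.06 in control (23 to 47 reads) to -2.00, -2.30 and -1.70 after both (5 to 9 reads).

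The arm treated with both agents was also compared with each agent alone. Against GSK-J4 alone 1 of 16 members fell in NT2/D1-A4 (H1-2, -0.72 ± 0.07, adjusted p = 5.40e-05, limma-trend) where 0.219% of all genes were called lower and 0.158% higher, and 3 of 30 in 2102EP-C1 (H1-2, H1-5 and H2BC18; 1.31% of all genes lower, 0.916% higher), and 0 rose in either. Without the fold limit the NT2/D1-A4 count was 2, against 1.26% of all genes. These counts were 2 in NT2/D1-A4 without GSK-J4 + cisplatin replicate 2 or replicate 3, and 1 in 2102EP-C1 without GSK-J4 + cisplatin replicate 2. In 2102EP-C1 H1-5 and H2BC18 were above 0.5 CPM in at least 2 libraries of neither arm. Among members averaging 1 CPM or more, 1 of 10 was called there. Against cisplatin alone 8 of 16 fell in NT2/D1-A4 and 11 of 30 in 2102EP-C1, where 7.84% and 8.82% of all genes were called lower and 12.8% and 10.5% higher, and 0 rose. This last comparison and GSK-J4 against control share no libraries. The 4 members called for GSK-J4 without cisplatin in NT2/D1-A4 (H1-2, H2AC6, H2BC4 and H2BC21) were all among the 8 called for GSK-J4 within cisplatin, and in 2102EP-C1 7 members were called in both, of 14 and 11. Within cisplatin, H2AC8 and H2BC8 in NT2/D1-A4 and H1-5 and H2AC17 in 2102EP-C1 were above 0.5 CPM in at least 2 libraries without GSK-J4 only. H1-4 and H2BC18 in 2102EP-C1 were so in neither arm, so these calls were not independent of the filter. Among members averaging 1 CPM or more, 6 of 9 in NT2/D1-A4 and 6 of 10 in 2102EP-C1 were called within cisplatin. H2AC6 in NT2/D1-A4 changed by -1.34 ± 0.14 within cisplatin (adjusted p = 2.26e-07, limma-trend), from 1.5, 1.65 and 1.72 to 0.42, 0.17 and 0.27.

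Whether the effect of cisplatin itself differed after GSK-J4 was tested as an interaction. By limma-trend 0 of 16 members passed in NT2/D1-A4, where 0.0426% of all genes were called, and 0 of 30 passed in 2102EP-C1, where 0.857% were called. At an unadjusted p under 0.05 there were 4 and 5 members, respectively, and 1 member was called in 2102EP-C1 without GSK-J4 + cisplatin replicate 3. For H1-2 the interaction was -0.02 ± 0.10 in NT2/D1-A4 and -0.19 ± 0.09 in 2102EP-C1 (log2, SE; adjusted p = 0.984 and 0.280, limma-trend). The 1 member that lay far from the rest, H1-1 in NT2/D1-A4, was 1.36 ± 0.42 higher with both agents than with GSK-J4 alone but was not called, at 2 to 26 reads per library.

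**Figure D4:**
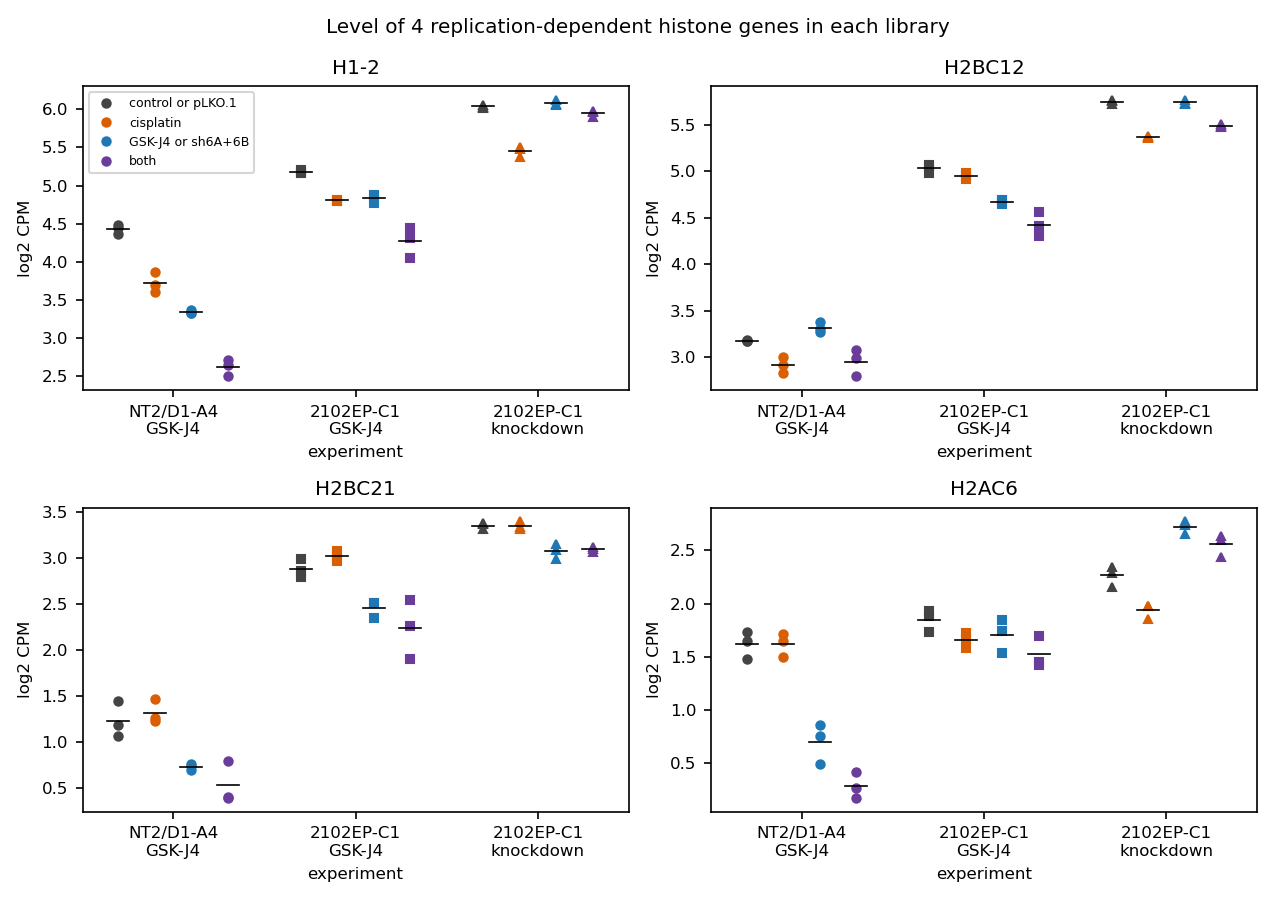
Log2 CPM (y) of H1-2, H2BC12, H2BC21 and H2AC6 in each library, grouped by experiment (x) and coloured by arm, with bars at the means of 3 libraries. H1-2 steps down through the arms of the NT2/D1-A4 experiment, from 4.36 to 4.48 in control to 2.50 to 2.71 after both agents, while in 2102EP-C1 its cisplatin and GSK-J4 arms overlap and in the knockdown experiment pLKO.1 with cisplatin is lowest at 5.37 to 5.51.

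In sh6A+6B cells cisplatin was not followed by a call in any member. Against sh6A+6B alone it gave 0 calls among 32 members, where 1.04% of all genes were called lower and 2.48% higher, with 6 members at an unadjusted p under 0.05 in limma-trend and 4 at an adjusted p under 0.05 when the fold was not considered, a criterion that 44.8% of all genes met. That count was 1 without sh6A+6B replicate 3 or without sh6A+6B + cisplatin replicate 1, and 2 without sh6A+6B + cisplatin replicate 3. The same dose had lowered 6 members in pLKO.1 cells. Against pLKO.1, sh6A+6B with cisplatin gave 1 member that rose, H3C6 (0.45, adjusted p = 0.00739, limma-trend), and 0 that fell, where 8.51% of all genes were called higher and 7.50% lower. It gave 2 without pLKO.1 replicate 2 or without any 1 of the 3 sh6A+6B + cisplatin libraries, and 3 without pLKO.1 replicate 3. Without the fold limit 8 members passed, against 62.6% of all genes.

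Within cisplatin-treated cells, sh6A+6B was compared with pLKO.1, and 6 of 32 members rose and 0 fell (6.40% of all genes higher, 8.77% lower), while 13 passed without the fold limit, against 61.6% of all genes. These were H1-2 (0.49 ± 0.03), H2AC6 (0.62 ± 0.07), H2AC20 (0.64), H3C6 (0.54), H3C12 (0.56) and H4C3 (0.52), with adjusted p from 1.39e-12 for H1-2 to 0.00821 for H2AC20 in limma-trend. All 6 had every sh6A+6B library above every pLKO.1 library. The H3C6 call was lost without pLKO.1 + cisplatin replicate 2, and the H2AC20 call without pLKO.1 + cisplatin replicate 1. H2AC20 and H3C12 were above 0.5 CPM in at least 2 libraries of sh6A+6B with cisplatin but not of pLKO.1 with cisplatin. H3C12 reached this in no other arm, so its call was not independent of the filter. H1-2 was called in this comparison in each experiment, lower with GSK-J4 in NT2/D1-A4 (-1.10, adjusted p = 8.22e-10, limma-trend) and in 2102EP-C1 (-0.53, adjusted p = 1.13e-07, limma-trend) and higher with sh6A+6B.

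The interaction in the knockdown experiment was called above 0 for 5 of 32 members and below 0 for 0, where 1.09% of all genes were called higher and 2.67% lower. A value above 0 means a cisplatin change that was less negative, or positive, in sh6A+6B cells compared with pLKO.1 cells. H1-2 had changed by -0.58 with cisplatin in pLKO.1 cells, and in sh6A+6B cells it went from 6.05, 6.12 and 6.06 to 5.98, 5.96 and 5.90, a change of -0.13. The difference of these changes was 0.45 ± 0.04 (adjusted p = 1.48e-08, limma-trend). H4C3 was at 1.85, 1.59 and 2.08 in sh6A+6B and 2.00, 2.01 and 1.99 with cisplatin, and its interaction was 0.58 ± 0.13 (adjusted p = 0.000793, limma-trend). H3C12 was at -1.28, -1.12 and -0.96 in sh6A+6B and -1.10, -0.75 and -0.66 with cisplatin, an interaction of 0.85 ± 0.24 (adjusted p = 0.00788, limma-trend). For both genes the sh6A+6B libraries with and without cisplatin overlapped, whereas the pLKO.1 libraries had lain apart. H3C12 was above 0.5 CPM in at least 2 libraries only in sh6A+6B with cisplatin, so its interaction call was not independent of the filter. H2AC25, an H2A gene on chromosome 1, was at 0.97, 0.97 and 0.96 in pLKO.1 and 0.69, 0.72 and 0.91 with cisplatin, and at 0.73, 0.86 and 0.79 in sh6A+6B and 1.14, 1.12 and 0.96 with cisplatin. Its libraries thus shifted down with cisplatin in pLKO.1 cells and up in sh6A+6B cells, with an interaction of 0.48 ± 0.13 (adjusted p = 0.00500, limma-trend). H2BC11 had an interaction of 0.41 ± 0.13 (adjusted p = 0.0167, limma-trend) whose call was lost without pLKO.1 replicate 1, pLKO.1 + cisplatin replicate 1 or 3, sh6A+6B replicate 3 or sh6A+6B + cisplatin replicate 3. The class medians of the interaction ranged from 0.04 for H2B to 0.24 for H4.

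**Figure D5:**
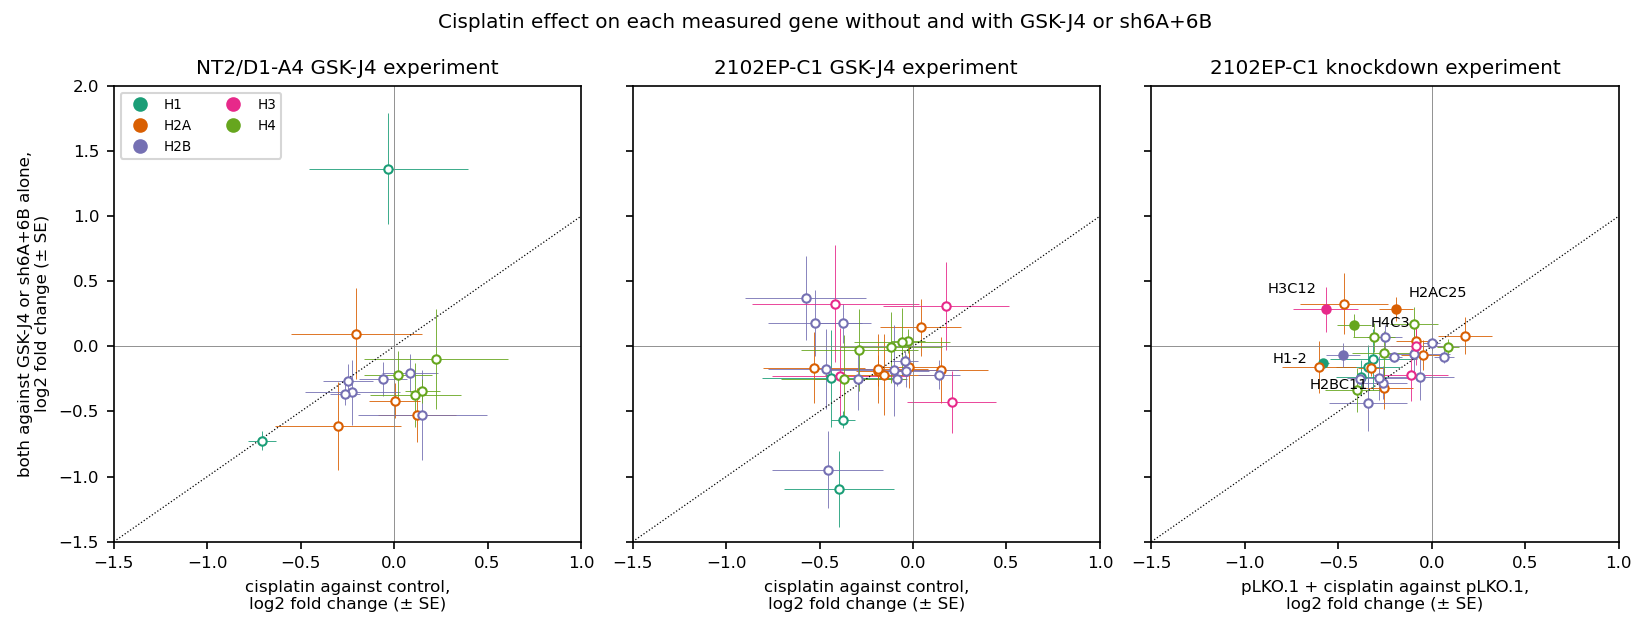
Log2 fold change ± SE of each measured member with cisplatin alone (x) against cisplatin after GSK-J4 or in sh6A+6B cells (y), 1 panel per experiment, coloured by class; the dotted line marks equal changes and filled, named points were called in the interaction. The 5 named points of the knockdown panel lie above the line, H1-2 at -0.58 and -0.13, and no point is filled in the GSK-J4 panels.

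Genes that act beside histone synthesis were examined as companion lists. Of 45 S phase and replication genes, 6 fell with GSK-J4 in NT2/D1-A4 and 2 in 2102EP-C1 while 0 rose, where 6.48% and 3.12% of all genes were called lower. With sh6A+6B 4 fell and 1 rose, where 5.74% of all genes were called lower and 6.34% higher. The shares of 2 and 4 of 45 were near those of all genes. The medians were -0.21, -0.18 and -0.19, and 39, 40 and 41 of the 45 genes had values below 0. UHRF1, which helps to maintain DNA methylation at replication forks, fell in each (-0.86, -0.48 and -0.43). The summed level of the list went from 7004 ± 75.6 to 6177 ± 65.5 CPM with GSK-J4 in NT2/D1-A4, from 6005 ± 74.1 to 5383 ± 70.4 CPM in 2102EP-C1, and from 5782 ± 22.5 CPM in pLKO.1 to 5133 ± 34.8 CPM in sh6A+6B. The libraries of this sum did not overlap between the arms in any experiment, the knockdown experiment included, and the list was not tested as a group. Its part in the member changes was not tested. With cisplatin alone 0 of the 45 genes were called in any experiment (medians 0.02, -0.03 and -0.07), and in the knockdown interaction 35 of 45 had a value above 0 with a median of 0.11 and 0 called.

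SLBP, the stem-loop binding protein, had log2 CPM of 6.98 to 7.05 in NT2/D1-A4 control and 6.60 to 6.70 with GSK-J4 (-0.35, adjusted p = 1.46e-06, limma-trend). It differed by -0.27 (adjusted p = 1.39e-06, limma-trend) with GSK-J4 in 2102EP-C1 and by -0.29 (adjusted p = 7.13e-11, limma-trend) with sh6A+6B, each under the fold limit, and its part in the member changes was not tested. In the knockdown interaction SLBP had a value of 0.21 (adjusted p = 5.52e-06, limma-trend), under the fold limit. NPAT, the coactivator of histone gene transcription, was at 4.98 to 5.02 in NT2/D1-A4 control and 4.80 to 4.87 with GSK-J4, with overlapping ranges in both 2102EP-C1 experiments. In the list of 21 histone transcription and 3′ end factors 4 genes fell with GSK-J4 in NT2/D1-A4 (CASP8AP2, CSTF2, POU2F1 and SRRT), and 0 were called in 2102EP-C1 with GSK-J4 or with sh6A+6B, beside 6.48% of all genes lower in NT2/D1-A4 and 3.12% and 5.74% in the 2102EP-C1 experiments. Among 20 histone chaperones and supply genes, NASP, a chaperone of H3, H4 and linker histones, fell in both GSK-J4 experiments (-0.40 and -0.40), ASF1B rose in NT2/D1-A4 (0.38), and 0 were called with sh6A+6B, so that 1 of 20 fell in each GSK-J4 experiment, near the share of all genes.

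The 12 measured replication-independent histone variants, most of whose mRNAs are polyadenylated (H2AX also makes a stem-loop form), provided a comparison within the histone family. With GSK-J4 2 of them rose and 1 fell in NT2/D1-A4, 1 rose and 1 fell in 2102EP-C1, and with sh6A+6B 1 fell, with medians of 0.00, -0.17 and -0.10. These counts of 12 were near the shares of all genes, of which 13.8% rose and 6.48% fell in NT2/D1-A4, 7.79% and 3.12% in 2102EP-C1, and 6.34% and 5.74% with sh6A+6B. MACROH2A2, a variant associated with repressed chromatin, rose with GSK-J4 in 2102EP-C1 (0.89) and fell with sh6A+6B (-0.46). H2AX, the variant phosphorylated at DNA breaks, fell with GSK-J4 in 2102EP-C1 (-0.57). The replication-dependent members had medians of -0.39, -0.50 and -0.03 in the same comparisons, and whether the lists differed was not tested.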

How the data were processed

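The 3 tables, of 12 libraries each, were analysed separately. As described by the study, RNA was prepared with a stranded mRNA kit, and reads were trimmed with Trimmomatic, aligned to GRCh38.p14 with STAR and counted with featureCounts (tool versions and the strand setting are not given in the sources used here). The deposited values are log2 CPM on TMM-scaled library sizes, made by the authors, and were found to carry a prior count of 3.0. Whole reads were recovered from them, and 100% of values under 50 reads came out whole within 0.05 reads. The recovered reads gave the depths, the CPM and RPKM values and the read ranges, which cover counting error only. At the depth of the shallowest library, 26.8 M reads (megareads), a gene at 1 CPM had about 27 reads, so members below this level rest on few reads.

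Row identifiers were matched to RefSeq GeneIDs, leaving 15 to 17 rows unmatched per table. The members, the companion lists and the tests were chosen with earlier results of these data known. Each table was fitted on its own by limma-trend (limma 3.58.1 in R 4.3.3) on the deposited log2 values with the 4 arms as groups, and p-values were adjusted by Benjamini-Hochberg over all genes of the table. A call needed a change of more than 1.3-fold and an adjusted p under 0.05. The interaction was the change with cisplatin after GSK-J4 or sh6A+6B minus the change with cisplatin alone. Values per library are given for the leading gene of each class, for up to 6 members with the smallest adjusted p with GSK-J4 or sh6A+6B, for members called in both GSK-J4 experiments or in opposite directions, and for members called with cisplatin or in the interaction. Replicates of an arm differed by more than sampling noise (chi-square per gene of 1.67 to 24.8), so none was merged. The fit was tested on simulated data. Stem-loops, gene ends and coding sequences were read from GRCh38.p14 with RefSeq and GENCODE 44 gene models.

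Alternatives were a replicate block, voom weights on the recovered reads, library sizes without TMM, a prior count of 0.5, only the groups compared, only genes over 1 log2 CPM in every library, no fold limit, and leaving out each library. Counts over members averaging 1 CPM or more and over members sharing no 75-base coding window were added after seeing the data.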

Additional observations from a re-analysis of the deposited data

Results flagged for a closer look

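In the knockdown experiment 5 members were marked because the effect of cisplatin differed between sh6A+6B and pLKO.1 cells in limma-trend, with interactions of 0.85 for H3C12, 0.58 for H4C3, 0.48 for H2AC25, 0.45 for H1-2 and 0.41 for H2BC11 on the log2 scale. Of these, H3C12 was above 0.5 CPM in at least 2 libraries only in sh6A+6B with cisplatin. H2BC12 was marked because each GSK-J4 library lay above each control library in NT2/D1-A4 (0.14) and below each in 2102EP-C1 (-0.36), a difference between the lines that was not tested.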

How the results depend on the processing

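With a replicate block, the counts of members called were 1, 5, 9, 1, 7 and 0 in the NT2/D1-A4 GSK-J4 experiment, 0, 14, 19, 3, 11 and 0 in the 2102EP-C1 GSK-J4 experiment and 6, 3, 1, 0, 6 and 5 in the knockdown experiment (cisplatin against control, demethylase inhibition or knockdown against control, both against control, both against the inhibition or knockdown, both against cisplatin, and the interaction). Replicate numbers did not pair the libraries, since same-numbered libraries correlated at -0.183 to 0.277, -0.125 to 0.1 and -0.167 to 0.313 in the 3 experiments and 5, 2 and 7 of 12 correlated best with their own number. With voom weights, unadjusted library sizes, a prior count of 0.5 or only the groups compared, every count stayed within 1.5 times its value, and of the 92 calls 0 reversed in direction under any alternative run.

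Counts moved with the choice of genes. With only genes over 1 log2 CPM in every library, NT2/D1-A4 gave 1 for GSK-J4, 3 for both and 2 for both against cisplatin, 2102EP-C1 gave 2, 5, 5 and, for both against GSK-J4, 1, and the knockdown experiment gave 1 for sh6A+6B, 0 for both, 3 for both against cisplatin and 3 for the interaction. Among members averaging 1 CPM or more, 2102EP-C1 gave 3, 6, 6 and 1 in that order, and the knockdown experiment 1, 0 and 3. Among members with no shared coding window, NT2/D1-A4 gave 2, 5 and 5, 2102EP-C1 gave 7, 10 and 5, and pLKO.1 cells with cisplatin gave 3. Fewer members were counted in these settings, and the share called moved as well. Among members averaging 1 CPM or more it was 3 of 10 with GSK-J4 in 2102EP-C1, against 14 of 30 measured members. In NT2/D1-A4 it was 4 of 9 against 4 of 16. What moved the counts was not tested. Without the fold limit, NT2/D1-A4 gave 2 for cisplatin and 2 for both against GSK-J4, 2102EP-C1 gave 1 for cisplatin, and the knockdown experiment gave 11 for cisplatin, 6 for sh6A+6B, 8 for both, 4 for both against sh6A+6B and 13 for both against cisplatin.

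Leaving out each library in turn, in the order of the first sentence, gave 1 to 1, 4 to 5, 8 to 10, 1 to 2, 6 to 8 and 0 to 0 calls in NT2/D1-A4, 0 to 1, 5 to 14, 13 to 20, 1 to 3, 10 to 14 and 0 to 1 in 2102EP-C1, and 4 to 9, 2 to 3, 1 to 3, 0 to 2, 5 to 7 and 4 to 7 in the knockdown experiment. Depth limits members with few reads, above all in the GSK-J4 experiments, and poly(A) selection limits how far any level stands for the total histone mRNA.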
